A study of Mus musculus with 42 samples.

Results

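The SWI/SNF (BAF) chromatin remodeler was followed through 10 of its subunit genes: Smarca2, Smarca4, Smarcb1, Smarcc1, Smarcc2, Smarcd1, Smarcd2, Smarcd3, Arid1a and Arid1b. They were taken by symbol from the 24466 symbols counted in each of 8 RNA-seq libraries, and all 10 passed the filter on low counts that left 14836 genes for testing. The study asked what the transcription factor Pax7, which marks muscle stem cells, does to chromatin and transcription. The +Dox iPax7 cells (3 libraries) are muscle precursors grown from an engineered mouse ES cell line with a doxycycline-inducible Pax7, kept in 0.75 µg/ml doxycycline (Dox). The -Dox iPax7 cells (2 libraries) are the same engineered cells 3 d after Dox was withdrawn. Satellite cells (3 libraries) are the stem cells of adult muscle, sorted directly from mice that carry a Pax7-ZsGreen fluorescent reporter. The iPax7 cells descend from a single engineered line and were sorted as PDGFRα+ Flk-1- cells before expansion, so they stand for that line and not for embryonic muscle at large. Peak sets also came from iPax7 cells at 12 h and 24 h without Dox, from myotubes made from iPax7 cells in 2% horse serum, and from the mouse muscle cell line C2C12, as unmodified myoblasts, myotubes, myoblasts made to express Flag-tagged Pax7 (Pax7-flag) and their flag control.

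SWI/SNF complexes use the energy of ATP to slide or evict nucleosomes. Each complex holds 1 ATPase (Smarca4, also called BRG1, or Smarca2, also called BRM), scaffold proteins (Smarcc1, Smarcc2 or both) and a Smarcd (BAF60) protein. Smarcb1 belongs to the BAF and PBAF forms and is absent from the non-canonical form, and Arid1a or Arid1b marks the BAF form. The choice among Smarcd1 (BAF60A), Smarcd2 (BAF60B) and Smarcd3 (BAF60C) has been studied most in muscle, where BAF60C is known to associate with the muscle factor MyoD.

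Libraries held 39010958 to 54674619 counts on genes. Pax7 is given as TMM-scaled CPM (counts scaled to library size). It lay at 269.8, 298.8 and 245.5 in +Dox, 4.66 and 5.70 in -Dox and between 83.0 and 180 in satellite libraries. Myog, a gene of differentiating muscle, lay at 3400 and 3999 in the -Dox libraries and under 100 elsewhere. Both genes followed the labels. The summed CPM of 10 muscle stem and progenitor genes was 3978 to 5651 in +Dox, 1367 to 1409 in -Dox and 16569 to 26107 in satellite cells. Not all of them fell on Dox withdrawal. Des lay at 16.2 to 26.1 in +Dox and at 240 and 268 in -Dox cells, and Itga7 also rose. Myod1 was at most 6.78 in iPax7 libraries and 431 to 551 in satellite cells. Satellite libraries stood apart in several ways whose part in the results below was not tested. The summed CPM of 8 stress and dissociation genes was 7925 to 20132 in them against at most 67.0 in iPax7 cells, and that of 8 proliferation genes was 52.3 to 81.7 against 1444 to 1827 in +Dox and 132 to 149 in -Dox cells. Summed markers of other cells were also higher: 8 endothelial genes summed to 446 to 567 CPM against at most 20.1 in iPax7 cells. For 8 blood genes the sums were 232 to 626 (2 of them at 0) against at most 12.8 (5 at 0). For 6 mesenchymal genes they were 1251 to 2318 against at most 266. Most of the satellite sums came from Cd74 for blood and from Dcn, Col1a1 and Col3a1 for mesenchymal genes. The mesenchymal marker Ly6a was not higher, at up to 203.9 CPM in +Dox and up to 99.93 in satellite cells. The -Dox cells differed from the +Dox cells in the 12 genes of differentiating muscle, with a summed CPM of 40869 to 41555 against 154 to 187. In bulk samples, fewer cells of a type and less RNA per cell cannot be told apart.

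All 10 subunit transcripts were counted in every library, and the levels of some differed between satellite cells and iPax7 cells. Against +Dox cells, Smarcd1, Arid1a and Arid1b were higher and Smarcb1 and Smarcc1 were lower, and the same 5 genes passed the test in the same directions against -Dox cells, together with Smarcd2. Dox withdrawal itself moved no member past the test. A gene was called when its p in the quasi-likelihood test of edgeR, adjusted over all genes tested by the Benjamini-Hochberg method, was under 0.05. By that rule 5 of 10 members were called in satellite against +Dox cells (3 higher, 2 lower), where 44.9% of all genes were (25.1% higher, 19.8% lower), and 6 of 10 in satellite against -Dox cells (4 higher, 2 lower), where 39.0% of all genes were (20.9% higher, 18.1% lower). Set beside these shares, the count of members called is no sign that the family differs from genes at large. In -Dox against +Dox cells 0 of 10 members were called, where 7.70% of all genes were (4.66% higher, 3.04% lower). At an unadjusted p under 0.05 that comparison held 1 member, Smarcd2, where 21.6% of all genes passed, and DESeq2 also called 1, Smarcd2 again, where 15.8% of all genes were called. The comparisons share groups and are not independent. The median log2 fold change over all genes was 0.17 in satellite against +Dox cells and 0.23 against -Dox cells, and that of the members was 0.22 and 0.77.

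**Figure D1:**
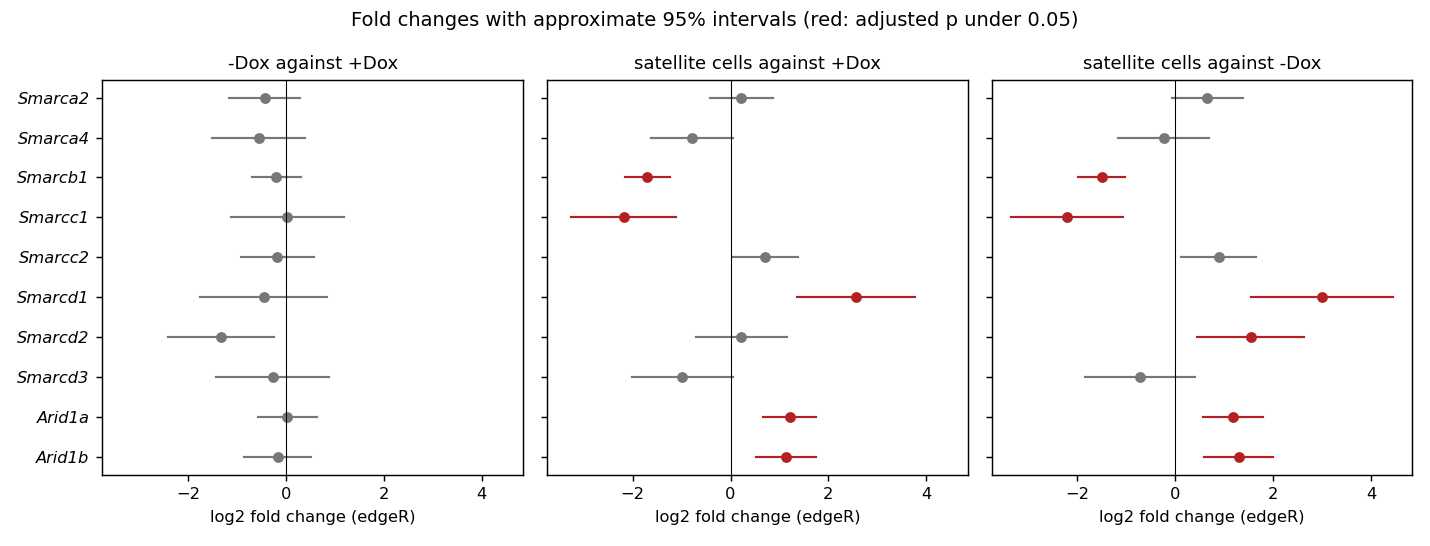
Log2 fold changes of the 10 SWI/SNF subunits in the 3 comparisons, with approximate 95% intervals from the fit across all genes and red where the adjusted p was under 0.05. Smarcd1, Arid1a and Arid1b lie above 0 and Smarcb1 and Smarcc1 below 0 in both satellite cell comparisons, and the -Dox against +Dox values lie between -1.33 and 0.03.

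The Smarcd balance differed between satellite cells and iPax7 cells. Smarcd1 was scarce in iPax7 cells, at 2.62, 2.90 and 4.08 CPM in the +Dox libraries and 1.69 and 2.99 in the -Dox libraries, and reached 9.41, 23.6 and 23.4 in satellite cells. The groups did not overlap, and satellite replicate 1 was the lowest of its group. The log2 fold change was 2.56 ± 0.54 (SE; adjusted p = 0.00438, edgeR) against +Dox cells and 3.01 ± 0.65 (adjusted p = 0.00566, edgeR) against -Dox cells. Without -Dox replicate 1 the second comparison gave 2.65 with an adjusted p of 0.0617 in edgeR.

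Smarcd2 was steady in +Dox cells, at 12.7, 12.0 and 12.3 CPM, and lay at 4.55 and 5.29 in -Dox cells and at 21.2, 11.4 and 10.5 in satellite cells. The -Dox libraries were below every other library, and satellite replicate 1 was above its group. Its log2 difference on Dox withdrawal was -1.33 ± 0.48 (adjusted p = 0.140, edgeR), which DESeq2 called with an adjusted p of 0.0336 and the fit on those 2 groups alone with 0.0326. Against -Dox cells, satellite cells were higher by 1.55 ± 0.49 (adjusted p = 0.0314, edgeR). That call is weak: it was lost in 7 of 13 alternatives, with an adjusted p of 0.0518 without satellite replicate 1 and up to 0.176 without -Dox replicate 1. Against +Dox cells the value was 0.22 ± 0.41 (adjusted p = 0.691, edgeR) and -0.17 without satellite replicate 1.

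Smarcd3, the BAF60C gene, lay at 11.2, 10.2 and 18.9 CPM in +Dox cells, 11.3 and 10.9 in -Dox cells and 9.63, 6.21 and 4.52 in satellite cells. Every satellite library was below every iPax7 library, but neither difference passed the test. The log2 values were -0.99 ± 0.46 (adjusted p = 0.105, edgeR) against +Dox cells, or -1.32 with an adjusted p of 0.0444 without satellite replicate 1, and -0.71 ± 0.50 (adjusted p = 0.280, edgeR) against -Dox cells. The interval of the -Dox against +Dox difference ran from -1.42 to 0.87. Smarcd3 shares 642 exon bases with Chpf2 on the opposite strand, and whether the counting used strand is not given in the sources used here. Without strand, reads over these bases may have been set aside as ambiguous and so be missing from Smarcd3. Ambiguous reads, left out here, were 1.51% to 2.32% of reads over the libraries.

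Per kilobase of exon, Smarcd1 made up 7.97% ± 0.64 (SD, n = 3) of the Smarcd transcripts in +Dox cells, 8.43% ± 3.04 (n = 2) in -Dox cells and 41.9% ± 19.6 (n = 3) in satellite cells. The satellite libraries were at 19.4%, 50.8% and 55.3%, all above the iPax7 libraries, whose highest share was 10.6%. Smarcd3 made up 59.8% ± 6.65 in +Dox, 73.5% ± 4.36 in -Dox and 26.6% ± 8.58 in satellite cells. Smarcd2 made up 32.2% ± 6.64, 18.1% ± 1.32 and 31.6% ± 11.2. Smarcd3 was thus the leading Smarcd gene in iPax7 cells per kilobase, but in +Dox cells its order against Smarcd2 depends on the length used: with the exons of all annotated transcripts Smarcd2 led with 47.2% against 39.2%.

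**Figure D2:**
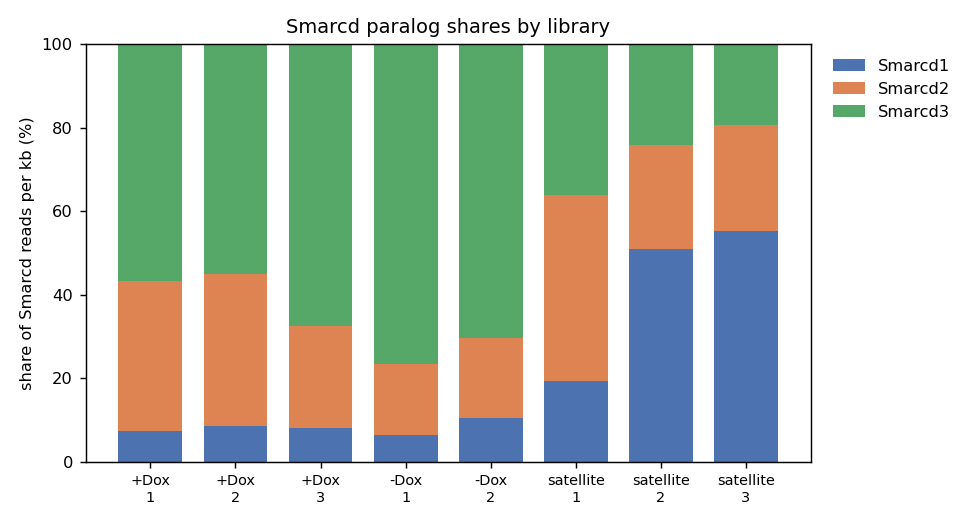
Share of Smarcd1, Smarcd2 and Smarcd3 in their summed CPM per kilobase of exon, in each of the 8 libraries. Smarcd1 takes 19.4% to 55.3% in the satellite libraries and 6.29% to 10.6% in the iPax7 libraries.

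The log2 ratio of Smarcd3 to Smarcd1 counts does not depend on length when groups are compared. It was 2.09, 1.82 and 2.21 in +Dox cells, 2.74 and 1.87 in -Dox cells and 0.03, -1.93 and -2.37 in satellite cells. The satellite libraries lay below all others, by 3.46 on average against +Dox cells (an 11.01-fold lower ratio, exact two-sided permutation p = 0.1) and by 3.72 against -Dox cells (13.2-fold, exact permutation p = 0.2). Without satellite replicate 1 the ratio was 18.2-fold and 21.9-fold lower, and over all single libraries left out the fold ran from 7.93 to 18.2 and from 9.51 to 21.9. The values 0.1 and 0.2 are the smallest that the two-sided test as run can give for 3 against 3 and 3 against 2 libraries. No ratio could therefore pass 0.05, and after adjustment over the 15 ratio comparisons every exact permutation p was at least 0.375. The log2 ratio of Smarcd2 to Smarcd1 had a mean of 1.97 in +Dox, 1.12 in -Dox and -0.34 in satellite cells, and the satellite libraries overlapped the -Dox but not the +Dox libraries.

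The start regions of the Smarcd genes are shown because the peak data below bear on them. Each runs 5′ to 3′ on the gene's strand from 250 bases before to 30 bases after an annotated start in mm9 (NCBIM37), and capitals mark the E-box CAGCTG, the core motif of MyoD and Myogenin, searched on both strands (the motif is its own reverse complement). The Smarcd1 and Smarcd2 starts are those of GENCODE M1 and the Smarcd3 start that of RefSeq.
Smarcd1, chr15:99532468-99532747, plus strand: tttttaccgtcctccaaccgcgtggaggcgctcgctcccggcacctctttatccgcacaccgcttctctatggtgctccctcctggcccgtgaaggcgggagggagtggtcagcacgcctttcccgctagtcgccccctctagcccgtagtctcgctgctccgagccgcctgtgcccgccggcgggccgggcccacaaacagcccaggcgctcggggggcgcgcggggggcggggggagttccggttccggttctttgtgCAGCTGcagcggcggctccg
Smarcd2, chr11:106134257-106134536, minus strand: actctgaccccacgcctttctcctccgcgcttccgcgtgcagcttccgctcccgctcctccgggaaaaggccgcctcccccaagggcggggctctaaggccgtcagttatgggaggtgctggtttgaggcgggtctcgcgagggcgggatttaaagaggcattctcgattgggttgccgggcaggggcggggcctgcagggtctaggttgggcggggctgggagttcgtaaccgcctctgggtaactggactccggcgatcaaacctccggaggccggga
Smarcd3, chr5:24107791-24108070, minus strand: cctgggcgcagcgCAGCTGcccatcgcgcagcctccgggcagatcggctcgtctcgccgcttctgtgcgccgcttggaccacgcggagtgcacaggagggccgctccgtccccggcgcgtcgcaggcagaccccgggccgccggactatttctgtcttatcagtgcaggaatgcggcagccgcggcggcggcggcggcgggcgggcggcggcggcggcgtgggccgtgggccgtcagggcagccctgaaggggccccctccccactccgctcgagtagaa
Smarcd1 and Smarcd3 hold 1 match each and Smarcd2 none. RefSeq promoters matched all 10 members (11 promoters), and 2 of the 11 hold CAGCTG, beside 16.3% of 32851 RefSeq promoters of 300 bases. For Smarcd2 the promoter counted, chr11:106128897-106129196, lies near an inner start and is not the window shown above. The paired-type homeodomain palindrome (on both strands, with a single fixed spacing) was in none of the 11 and in 0.487% of all promoters.

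Of the core subunits, Smarcb1 and Smarcc1 were lower in satellite cells. Smarcb1 (BAF47, SNF5), which sits against the nucleosome, lay at 263, 253 and 245 CPM in +Dox cells, 223 and 222 in -Dox cells and 83.4, 73.3 and 78.1 in satellite cells. Its libraries were tight within each group, and its adjusted p was the smallest of the 10 members. The log2 fold change was -1.70 ± 0.20 (adjusted p = 0.000216, edgeR) against +Dox and -1.50 ± 0.22 (adjusted p = 0.000731, edgeR) against -Dox cells. Smarcc1 (BAF155), a scaffold subunit, lay at 174, 162 and 144 CPM in +Dox, 152 and 175 in -Dox and 16.8, 67.0 and 22.1 in satellite cells. All satellite libraries were below all iPax7 libraries, with replicate 2 well above the other satellite libraries. The log2 fold change was -2.18 ± 0.48 (adjusted p = 0.00550, edgeR) and -2.21 ± 0.51 (adjusted p = 0.00811, edgeR).

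Smarcc2 (BAF170), the paralog of Smarcc1, lay at 33.9, 34.3 and 22.3 CPM in +Dox, 27.9 and 25.5 in -Dox and 49.8, 59.0 and 39.4 in satellite cells. The satellite libraries were all higher, but the values of 0.71 ± 0.30 (adjusted p = 0.0759, edgeR) and 0.89 ± 0.34 (adjusted p = 0.0634, edgeR) missed the threshold, which DESeq2 passed with adjusted p of 0.0261 and 0.0212. The log2 ratio of Smarcc2 to Smarcc1 had a mean of -2.43 in +Dox, -2.61 in -Dox and 0.74 in satellite cells, an 8.99-fold (exact permutation p = 0.1) and 10.2-fold (exact permutation p = 0.2) difference. Per kilobase, Smarcc1 made up 80.2% ± 2.54, 82.1% ± 2.39 and 32.1% ± 13.1 of the pair.

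**Figure D3:**
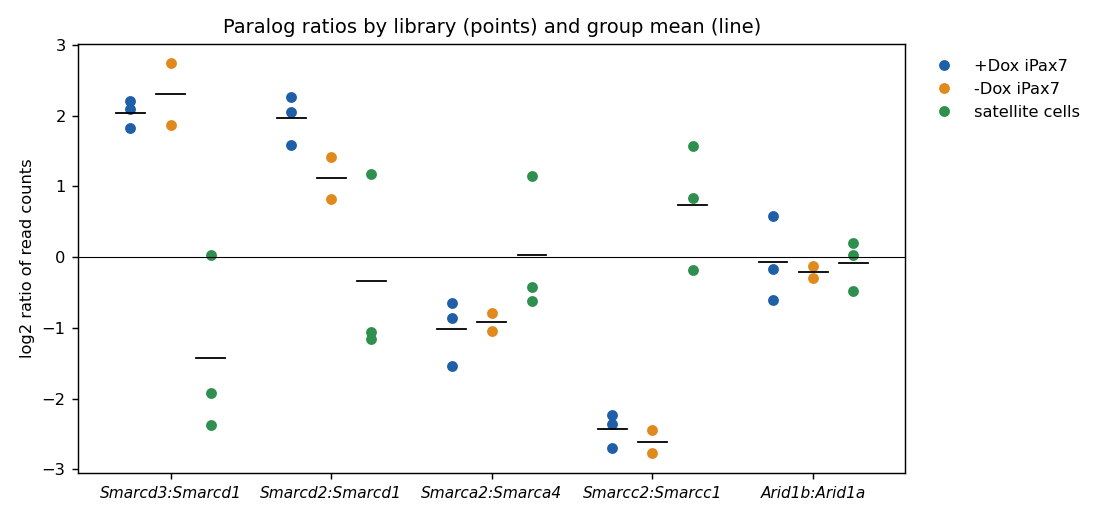
Log2 ratio of paralog counts in each library for 5 paralog pairs. Satellite libraries separate from iPax7 libraries in Smarcd3 to Smarcd1, Smarcc2 to Smarcc1 and, only narrowly, Smarca2 to Smarca4. Arid1b to Arid1a overlaps in all groups.

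Neither ATPase passed the test in any comparison, although Smarca4 in satellite against +Dox cells did with a replicate block (-0.85, adjusted p = 0.0419, edgeR) and Smarca2 against -Dox cells did without satellite replicate 1 (0.83, adjusted p = 0.0480, edgeR). Smarca4 lay at 105, 86.9 and 57.7 CPM in +Dox, 49.3 and 63.9 in -Dox and 54.2, 64.3 and 26.0 in satellite cells. Its groups overlap, with log2 values of -0.79 ± 0.38 (adjusted p = 0.114, edgeR) in satellite against +Dox and -0.55 ± 0.42 (adjusted p = 0.522, edgeR) in -Dox against +Dox cells. Smarca2 lay at 35.99, 48.0 and 36.7 CPM in +Dox, 28.4 and 31.1 in -Dox and 35.1, 48.2 and 57.6 in satellite cells. The -Dox libraries were the lowest, and satellite against -Dox cells gave 0.66 ± 0.33 (adjusted p = 0.132, edgeR). The log2 ratio of Smarca2 to Smarca4 had a mean of -1.02 in +Dox, -0.92 in -Dox and 0.03 in satellite cells. The libraries separated only narrowly: the lowest satellite value was -0.626 and the highest iPax7 value -0.655. On average the satellite ratio was 2.07-fold higher than in +Dox (exact permutation p = 0.1) and 1.94-fold higher than in -Dox cells (exact permutation p = 0.2). The size rests on satellite replicate 3, at 1.15 beside -0.63 and -0.42: without it the log2 differences were 0.50 and 0.40 in place of 1.05 and 0.95.

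The Arid1 subunits, which bind DNA and define the BAF form, were both higher in satellite cells. Arid1a lay at 92.4, 88.2 and 78.5 CPM in +Dox, 81.7 and 94.8 in -Dox and 162, 248 and 191 in satellite cells. Arid1b lay at 60.9, 78.5 and 117 CPM in +Dox, 74.8 and 77.2 in -Dox and 186, 178 and 195 in satellite cells. Neither overlapped between satellite and iPax7 cells. Arid1a rose by 1.21 ± 0.24 (adjusted p = 0.00333, edgeR) against +Dox and 1.18 ± 0.28 (adjusted p = 0.00867, edgeR) against -Dox cells, and Arid1b by 1.12 ± 0.27 (adjusted p = 0.00894, edgeR) and 1.29 ± 0.32 (adjusted p = 0.0103, edgeR). Against -Dox cells both calls were lost when either -Dox library was left out (adjusted p 0.0676 to 0.102 in edgeR), which leaves 1 library in that group. Their ratio to each other overlapped in all 3 groups.

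**Figure D4:**
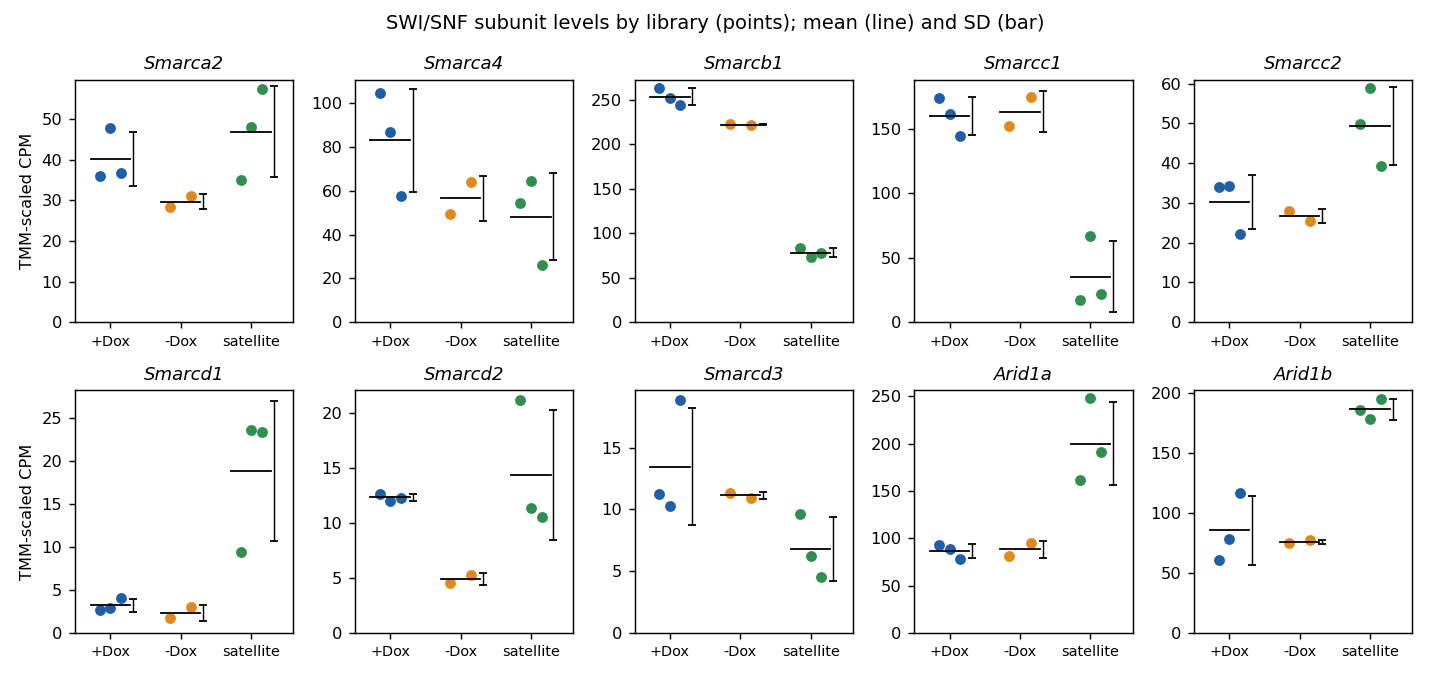
TMM-scaled CPM of the 10 subunits in each library (points), with the group mean (line) and SD (bar), each gene on its own linear axis. Smarcb1 and Smarcc1 are lowest, and Smarcd1, Arid1a and Arid1b highest, in satellite cells.

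In the count of members whose libraries do not overlap, 3 of 10 were separate in -Dox against +Dox (Smarca2, Smarcb1 and Smarcd2, all lower in -Dox), beside 45.3% of all genes. In satellite cells 7 were separate from +Dox, beside 56.5%, and 9 from -Dox, beside 64.3%. Longer genes also ran higher in satellite cells at large: over 4 equal classes of exon length from shortest to longest, the median log2 fold change against +Dox cells was -0.38, 0.01, 0.35 and 0.71. Smarcb1 and Smarcd3 fall in the shortest class and Smarca2, Smarca4, Smarcc1, Smarcc2, Arid1a and Arid1b in the longest, and the part of length in these values was not tested. Smarcc1 and Smarca4 go against their class, with values below 0 against both iPax7 groups.

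Compared per kilobase of exon, Smarcb1 led in all 3 groups, at 136, 119 and 42.0 CPM per kilobase in +Dox, -Dox and satellite cells. That order rests on the exons of protein-coding transcripts: with the exons of all annotated transcripts Smarcb1 was at 31.2 and 27.3 in +Dox and -Dox cells and still first, but at 9.62 in satellite cells it came after Arid1a (17.4), Arid1b (14.8) and Smarcc2 (9.82). On the protein-coding lengths Smarcc1 followed in iPax7 cells, at 24.0 and 24.6, and Smarcd1 was last, at 1.015 and 0.742. In satellite cells Arid1a was second at 21.3 and Arid1b next at 16.3, and from Smarcc2 (9.82) down to Smarcd3 (3.91) each neighbour overlapped the next. In +Dox cells Smarca4, Arid1a, Smarcd3, Arid1b, Smarca2 and Smarcc2, from 12.8 to 5.998, also overlapped neighbour by neighbour.

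Of 18 further SWI/SNF subunits, 17 were tested, and Actl6b, the neuronal actin-like subunit, had 0 counts in every library. Against +Dox cells, satellite cells were called higher for 2 and lower for 3, which is 29.4% of the 17 beside 44.9% of all genes. Actl6a, the actin-like subunit of progenitors, was lower by -1.42 ± 0.31 on the log2 scale (adjusted p = 0.00550, edgeR) and Brd7, of the PBAF form, by -1.58 ± 0.43 (adjusted p = 0.0154, edgeR). Smarce1 (BAF57) was also lower, at -0.92 ± 0.29 (adjusted p = 0.0303, edgeR, and up to 0.0786 with a library left out). Arid2, the PBAF counterpart of the Arid1 subunits, was higher by 0.97 ± 0.28 (adjusted p = 0.0197, edgeR, up to 0.0810) and Gltscr1l by 2.50 ± 0.49 (adjusted p = 0.00310, edgeR). Against -Dox cells 4 were called higher (Actb, Arid2, Gltscr1l and Dpf1) and 3 lower (Brd7, Smarce1 and Dpf2), or 41.2% beside 39.0% of all genes. Most of these calls are weak: of 13 alternatives, Dpf1 lost its call in 9, Arid2 and Dpf2 in 7, Actb and Gltscr1l in 5, Brd7 in 2 and Smarce1 in 1.

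Dpf3 (BAF45C), a reader of histone marks known from heart and skeletal muscle, was the only gene of the 17 called on Dox withdrawal (5.88%, beside 7.70% of all genes). Its counts were 0, 0 and 19 in +Dox, 604 and 1021 in -Dox and 66, 24 and 21 in satellite cells. Both -Dox libraries were far above the rest. The fitted log2 fold change was 7.03 ± 1.69 (adjusted p = 0.0361, edgeR), which depends on the near absence of +Dox reads, and the call was lost in 5 of 13 alternatives, with an adjusted p of up to 0.168 in edgeR. No ATAC or histone peak lay within 1000 bases of its annotated starts in any set, and 5.35% of the 51-base windows of its exons occur once in the genome, so its reads are uncertain.

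Of 21 remodelers of other families, 0 were called in -Dox against +Dox cells, beside 7.70% of all genes. At an unadjusted p under 0.05 in edgeR 2 passed there, beside 21.6% of all genes. In satellite against +Dox cells 13 were called (12 higher, 1 lower), and in satellite against -Dox cells 9, all higher. Over all genes 44.9% and 39.0% were called in these comparisons, 25.1% and 20.9% as higher, and the higher values of long genes given above were not separated from these counts. Chd1, which acts with elongating polymerase, was 4.44-fold higher than in +Dox and 6.84-fold higher than in -Dox cells (adjusted p = 0.000199 and 0.000188, edgeR). Ino80 and Ep400, of the INO80 family, were 6.61-fold and 4.02-fold higher than in -Dox cells (adjusted p = 0.00164 and 0.00304, edgeR). Hells, a remodeler linked to DNA methylation and proliferation, was lower than in +Dox cells by -3.74 ± 0.94 on the log2 scale (adjusted p = 0.0105, edgeR). Chd5 had 0 counts in every iPax7 library and 0, 112 and 34 in satellite cells, and its call against +Dox was lost in 4 of 10 alternatives.

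The genes most like each Smarcd gene were those with the smallest root mean square difference of centred log2 CPM over the 8 libraries. They were Pla2g12a (0.206), Mir18, Bach2, Kctd6 and Bik for Smarcd1, Plcb3 (0.139), Zdhhc1, Btbd3, Nectin2 and Tspan4 for Smarcd2, and Ube2q1 (0.174), Il10rb, Sept10, Eef2kmt and Tmem50a for Smarcd3.

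Chromatin at the member genes was read from peak sets with 1 set per condition, since replicates were merged before calling, so these are descriptions without a test. All 10 members had an ATAC peak, a site of open chromatin, within 1000 bases of an annotated start in every iPax7 set and in satellite cells, where 84.6% to 89.9% of 12952 tested genes did. The highest fold enrichment at Smarcd1 was 27.6 in +Dox, 20.0 in -Dox 3 d and 8.40 in satellite cells, and at Smarcd3 it was 17.6, 19.2 and 9.76. The median over all genes with a peak was 24.4, 24.1 and 14.5 in the same sets, and the sets were not scaled to each other. At Smarcd2, the ATAC peak lay at the outermost start (54.6, 36.5 and 18.4) and none lay within 250 bases of its other annotated starts. In unmodified C2C12 myoblasts, the ATAC set with the fewest peaks (42700), 9 of 10 members had a peak and Smarcd3 did not, beside 67.3% of tested genes. Smarcd3 had peaks in the other C2C12 sets, at 13.8 in the flag control, 18.5 with Pax7-flag and 9.87 in myotubes. The repressive mark H3K27me3 lay at the start of 0 of 10 members in either iPax7 set, where 19.6% (+Dox) and 16.9% (-Dox) of tested genes carried it, and at Smarca2 alone in the C2C12 Pax7-flag and flag control sets.

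No member had a Pax7 site within 1000 bases of a start, and 2.22% of tested genes did. Arid1a and Arid1b each held 1 Pax7 site of the 2455 in an intron, beside 6.96% of tested genes with a site inside and 21.2% of the 2390 genes at least as long as Arid1a. The Arid1a site, chr4:133293043-133293365, lies 13249 bases from the nearest start, and the Arid1b site, chr17:5295478-5295981, 45733 bases. The site nearest to Smarcd3 lies 12742 bases beyond the gene's end and overlaps a start of Abcf2. The middle 300 bases of the intronic sites are shown on the plus strand of mm9, with CAGCTG in capitals.
Arid1a, chr4:133293054-133293353: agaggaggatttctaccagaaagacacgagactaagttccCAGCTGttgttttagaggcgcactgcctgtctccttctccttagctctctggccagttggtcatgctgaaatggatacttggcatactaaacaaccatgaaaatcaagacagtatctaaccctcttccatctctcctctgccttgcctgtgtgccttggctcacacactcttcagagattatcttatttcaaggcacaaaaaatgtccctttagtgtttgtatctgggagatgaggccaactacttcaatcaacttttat
Arid1b, chr17:5295580-5295879: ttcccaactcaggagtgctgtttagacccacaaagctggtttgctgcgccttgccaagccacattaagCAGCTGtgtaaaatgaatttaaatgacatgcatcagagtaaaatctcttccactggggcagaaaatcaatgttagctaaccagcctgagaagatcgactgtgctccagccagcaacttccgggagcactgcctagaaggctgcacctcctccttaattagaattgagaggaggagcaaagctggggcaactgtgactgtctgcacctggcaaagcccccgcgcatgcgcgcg
Each holds 1 match here, as 25.5% of the middles of all Pax7 sites do. Neither holds the homeodomain palindrome in the form searched, but only 1.71% of the middles of all Pax7 sites do. Its absence from these 2 sites is therefore uninformative, and forms with another spacing were not searched.

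The 2 intronic sites differed in how open they were. The Arid1a site had an ATAC fold enrichment of 8.87 in +Dox cells and no peak in any of the 9 other ATAC sets, satellite cells included. The Arid1b site stood at 19.8 in +Dox cells, 2.57, 2.71 and 3.24 at 12 h, 24 h and 3 d without Dox, 6.13 in 2% horse serum and 9.57 in satellite cells. In C2C12 cells the Arid1b site stood at 4.91 with Pax7-flag and 3.52 in myotubes, with no peak in the flag control or unmodified myoblasts. Among 2341 Pax7 sites with an ATAC peak in +Dox cells, 25.4% had none at 12 h, 24 h or 3 d. The +Dox to 3 d ratio at the Arid1b site was 6.12, and its median over 1658 sites was 1.82. Peaks of H3K27Ac and H3K4me1, marks of enhancers, and of H3K4me3, a mark of promoters, covered both sites in +Dox and in -Dox 3 d cells. Over all Pax7 sites the shares covered in +Dox and -Dox 3 d cells were 73.2% and 37.9% for H3K27Ac, 91.2% and 73.8% for H3K4me1, and 66.3% and 75.6% for H3K4me3. Arid1a and Arid1b RNA did not pass the test on Dox withdrawal, with log2 values of 0.03 ± 0.27 and -0.17 ± 0.30 (adjusted p = 1 and 0.847, edgeR).

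**Figure D5:**
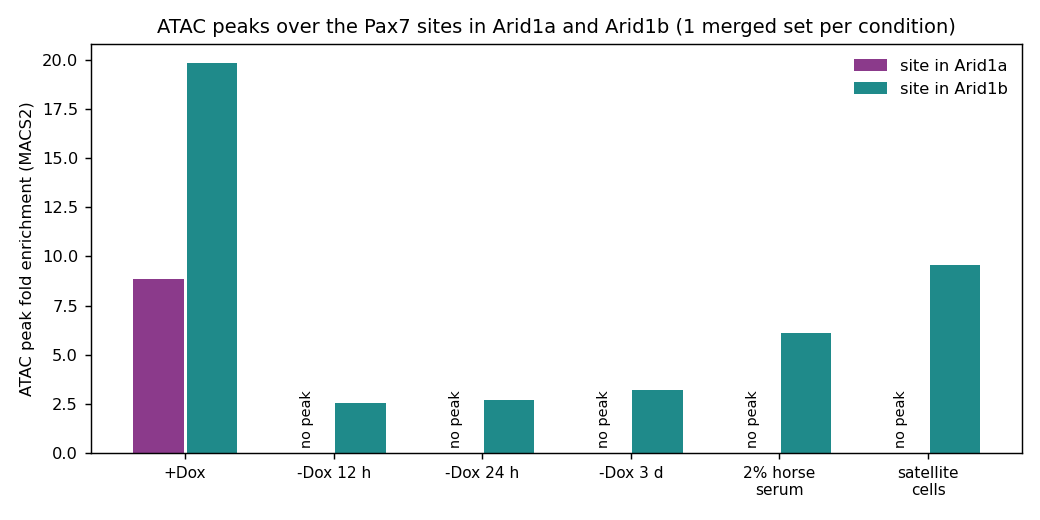
ATAC fold enrichment of the highest peak over the intronic Pax7 sites of Arid1a and Arid1b in the iPax7 and satellite cell sets, with no bar where no peak was called. Arid1a has a peak in +Dox cells only (8.87), and Arid1b is highest there (19.8).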

How the data were processed

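RNA was sequenced from +Dox iPax7 cells, -Dox iPax7 cells and satellite cells, and ATAC and ChIP peaks came from these and from C2C12 cells. The authors deposited raw HTSeq counts per gene symbol. The submitters' processing notes name TopHat2 2.0, Bowtie2 2.2 and 2.2.6, HTSeq 0.6, Trimmomatic 0.32, Picard, edgeR, MACS2 2.0.10 and mm9. The annotation and strand setting of the counts are not given in the sources used here. Rows that name no gene were left out (9.19% to 9.93% of reads in iPax7, 25.1% to 32.4% in satellite libraries, mostly reads placed in several locations). For ATAC the authors shifted reads for Tn5, removed duplicates, merged replicates and called peaks with MACS2, so the deposited peak lists hold fold enrichment (a ratio), pileup signal and -log10 p and q values. Histone peaks were deposited from merged replicates, with a p-value or score per region. Pax7 sites were kept if found in at least 2 +Dox samples and in no -Dox replicate.

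Counts were tested in edgeR 4.0.16 (R 4.3.3) with TMM scaling, filterByExpr and the quasi-likelihood test over all 8 libraries, adjusted over 14836 genes. A standard error is the log2 fold change over the square root of F. The fit was tested on simulated data only with changes of 4-fold or more, which does not cover the smaller changes of members on Dox withdrawal. Ratios used 0.5 added to counts and exact permutation tests. Exon lengths and starts came from GENCODE M1 on NCBIM37 (83.7% of symbols matched), and promoters from RefSeq (GRCm38.p6), placed on NCBIM37 by exact match. Alternatives were RLE factors, no filter, 2-group fits, a replicate block, DESeq2 1.42.0, each library left out, other lengths and narrower windows, and the other lengths beyond no division were chosen after seeing the data. Named genes were the members, further subunits called in any comparison plus Actl6a, Actl6b, Dpf3 and Smarce1, other remodelers called with at least a 4-fold change, and the 5 genes most like each Smarcd gene. Members and lists were chosen with earlier results of these data known. Replicates are not said to be separate cultures or animals, so p-values measure only the spread between these libraries.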

Additional observations from a re-analysis of the deposited data

How the results depend on the processing

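Scaling with RLE factors, or no filter on low counts, left all 30 member values (10 genes, 3 comparisons) with their direction and side of the threshold, while DESeq2 kept 27 and added 3 calls (Smarcd2 on Dox withdrawal and Smarcc2 in both satellite comparisons). The median of all genes in satellite against +Dox and -Dox cells was 0.24 and 0.25 with RLE, 0.42 and 0.50 with no filter and 0.49 and 0.53 in DESeq2. Members called on Dox withdrawal went from 0 to 1 (Smarcd2) under DESeq2 and in the 2-group fit. In satellite against -Dox cells the 6 calls ranged from 2 to 7 with a library left out, at 2 without -Dox replicate 1 and 3 without -Dox replicate 2, and over all genes from 5780 to 3204 and 3382. Over all genes the calls on Dox withdrawal were 1142, and 2155 in the 2-group fit, 2284 in DESeq2 and 488 to 674 without one of +Dox replicates 1 and 2 or the -Dox libraries. The cause of these shifts was not tested.

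In the fit with a replicate block, 0 members were called on Dox withdrawal, beside 742 calls over all genes. For satellite cells, Smarca4 was added to the calls against +Dox cells (adjusted p = 0.0419, edgeR). Against -Dox cells Smarcc2 was added (adjusted p = 0.0458, edgeR) and Smarcd2 lost (adjusted p = 0.0621, edgeR). Same-numbered libraries did not deviate together (r from -0.0487 to 0.0333). These correlations cannot show whether same-numbered libraries shared a culture or preparation, and the deviations of the 2 -Dox libraries mirror each other. Under the block Smarcc1, Arid1a and Arid1b on Dox withdrawal were -0.15, -0.024 and 0.017. With single libraries left out, log2 values on Dox withdrawal ran from -0.059 to 0.13 for Smarcc1, -0.43 to 0.053 for Smarcd3, -0.066 to 0.13 for Arid1a and -0.36 to 0.12 for Arid1b, with the sign turned by +Dox replicate 3 or, for Smarcc1 and Arid1a, also by -Dox replicate 2. Smarcd2 in satellite against +Dox cells ran from -0.17 (without satellite replicate 1) to 0.41, and Smarca4 against -Dox cells from -0.49 to 0.071 (without satellite replicate 3). Log2 ratio differences that turned sign with a library left out were Smarcd3 to Smarcd1 on Dox withdrawal (-0.17 to 0.70), Smarca2 to Smarca4 on Dox withdrawal (-0.16 to 0.28), and Arid1b to Arid1a on Dox withdrawal (-0.42 to 0.17), in satellite against +Dox (-0.29 to 0.30) and against -Dox cells (-0.011 to 0.33).

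Smarcd shares depend on length. With no division, Smarcd1, Smarcd2 and Smarcd3 were 10.99%, 43.5% and 45.5% in +Dox and 12.6%, 26.7% and 60.7% in -Dox, with Smarcd3 at 16.9% in satellite cells. With the exons of all transcripts they were 13.6%, 47.2% and 39.2%, then 16.1%, 30.0% and 53.9%, then 13.1%. Without bases shared with Chpf2 they were 5.90%, 23.9% and 70.2% in +Dox, with 12.7% (Smarcd2) and 81.4% (Smarcd3) in -Dox and 36.2% (Smarcd3) in satellite cells. H3K4me1 peaks within 250 bases of a start covered 4, 2 and 5 members in the C2C12 Pax7-flag, C2C12 flag control and -Dox iPax7 sets, against 10, 8 and 10 within 1000 bases.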
